A study of Mus musculus with 6 samples.

Results

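Genes that move cholesterol out of cells, carry it through the lysosome or store it as ester were examined in demyelinated mouse brain after astrocytes had been targeted. The list names 10 genes: Abca1, Abcg1, Apoe, Nr1h3, Plin2, Soat1, Npc1, Npc2, Mylip and Ch25h. Of these, 9 were read from Affymetrix probe sets that the platform annotation gives exactly 1 gene symbol, out of 22180 genes measured that way. Where a gene had several such probe sets, the one with the highest mean over all arrays was taken. Soat1, the enzyme that esterifies cholesterol for storage, was not analysed here because no probe set carried its symbol in the annotation used here.

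There were 3 arrays of transgenic lesions and 3 arrays of wild type lesions, each from total RNA of 1 macrodissected lesion of the brain. The transgenic mice carry a system for removing GFAP-positive astrocytes that do not proliferate, by induced apoptosis; the sources used here give neither the construct and its promoter nor the strain. Per the labels, both genotypes were lesioned with the myelin-stripping lipid LPC at 5 to 6 weeks of age, received CID, the compound that triggers ablation, 48 hours later, and were harvested 7 days after lesioning. The labels do not say that each lesion is from its own animal, and a p-value here therefore covers the spread of these samples alone.

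Cholesterol is a main lipid of myelin, and phagocytes that engulf myelin debris must dispose of it. Lysosomal cholesterol is handed from NPC2 to NPC1 for export, and surplus sterol is either esterified and kept in droplets coated by perilipin 2 or pumped by ABCA1 and ABCG1 onto apolipoprotein E particles. Oxysterols such as the 25-hydroxycholesterol made by CH25H act as ligands of liver X receptors, among them LXR alpha (Nr1h3), which switch on Abca1, Abcg1, Apoe and Mylip, whose product limits lipoprotein uptake. In the brain, astrocytes are a main source of apolipoprotein E and microglia are another.

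Levels below are log2 intensities and every difference is transgenic minus wild type. Of the 9 measured members, 8 had a lower mean in the transgenic lesions and Nr1h3 a higher one, and the median of the 9 differences was -0.27, while 51.1% of all 41345 probe sets were lower and their median was -0.0066. No member passed at an adjusted p of 0.05 in limma, nor did any probe set (0%), and the adjusted p of the members was 0.49 at the lowest and 0.98 at the highest. At an unadjusted p under 0.05 in limma, 1 of 9 members differed, Npc1, against 8.87% of all probe sets, 4.05% lower and 4.82% higher. With the replicate number as a block 2 did, Abca1 and Npc1, against 2999 of all 41345 probe sets. With array weights 5 did, against 10793. Apoe alone did without transgenic replicate 1, against 5168, and Ch25h alone without both arrays numbered 1, against 3033. In bulk tissue, fewer cells of a type and less RNA per cell cannot be told apart. The count of lower members was 6 without wild type replicate 1, with a median of -0.083, and also 6 without transgenic replicate 3, where the median was -0.12.

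Some facts of the arrays bear on all values. Arrays of transgenic lesions were more spread than those of wild type lesions, at a median SD over probe sets of 0.26 and 0.15. Xist was low and Y-linked genes were high in transgenic replicates 1 and 3, with the opposite in transgenic replicate 2 and all 3 wild type arrays, so sex and genotype largely coincide. A fit with sex as a term therefore sets transgenic replicate 2 alone against the 3 wild type arrays. The mean of the striatal neuron markers was 5.95 to 6.31 in transgenic lesions, against 6.03, 7.87 and 8.48 in wild type replicates 1, 2 and 3.

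**Figure D1:**
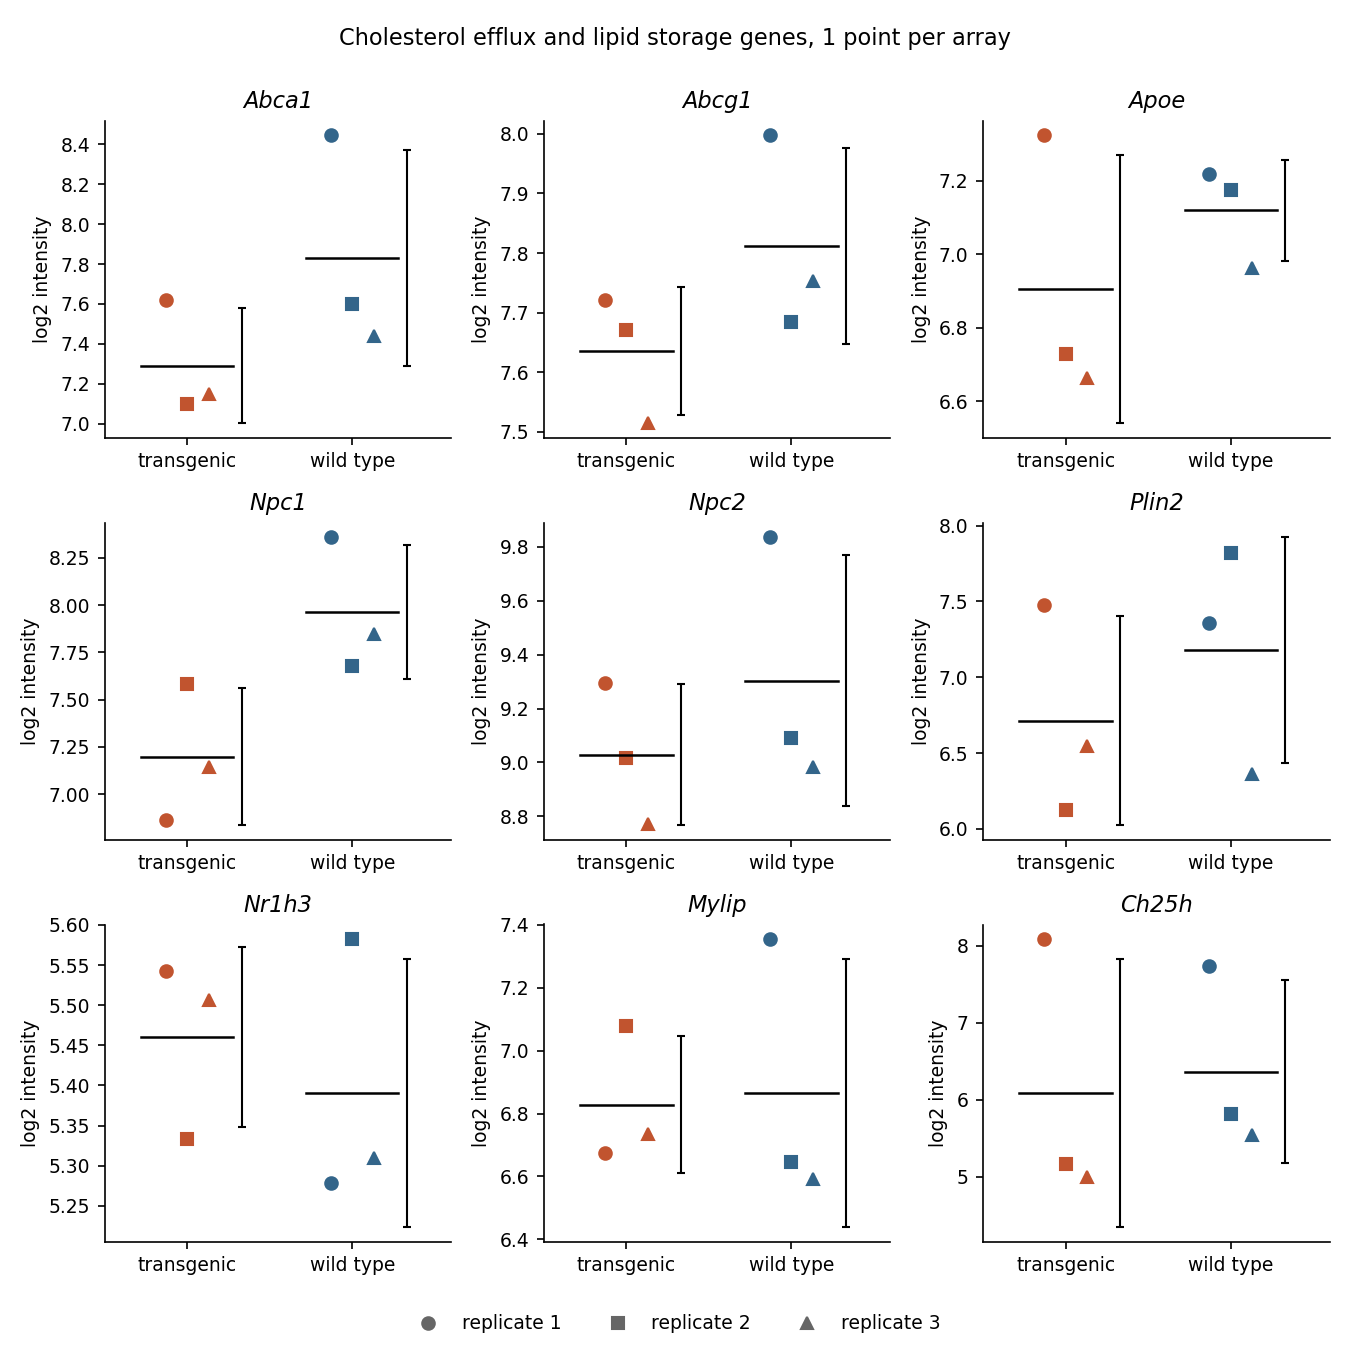
Log2 intensity (y axis) of each measured member in transgenic and wild type lesions, with 1 point per array, a line at the group mean and a bar of 1 SD (n = 3). The transgenic and wild type points are separate for Npc1 and overlap for the other 8 genes, and Ch25h stands far above the rest on replicate 1 of both groups.

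The upstream sequences of 3 members are printed because these genes stand for the efflux, storage and oxysterol steps and each holds a match to a known response element. They are the 250 bases before the annotated start, from RefSeq on GRCm38.p6, where 8 of the 10 genes had an entry, and all 3 lie on the minus strand. Abca1 is at chr4:53159896-53160145, and its capitals mark a match, with 3 mismatches in 12 letters, to the LXR element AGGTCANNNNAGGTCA, starting 67 bases before the start site on the strand opposite the gene. Plin2 is at chr4:86670060-86670309, and its capitals mark a match, with 2 mismatches, to the PPAR element AGGTCANAGGTCA, starting 225 bases before the start site, also on the opposite strand. Ch25h is at chr19:34475149-34475398, and its capitals mark an exact cAMP response element, TGACGTCA, which reads the same on both strands, starting 61 bases before the start site.
Abca1: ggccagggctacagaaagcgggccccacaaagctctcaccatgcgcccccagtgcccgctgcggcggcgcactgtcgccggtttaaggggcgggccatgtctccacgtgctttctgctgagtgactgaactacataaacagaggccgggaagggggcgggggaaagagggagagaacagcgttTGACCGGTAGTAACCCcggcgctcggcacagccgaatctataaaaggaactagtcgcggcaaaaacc
Plin2: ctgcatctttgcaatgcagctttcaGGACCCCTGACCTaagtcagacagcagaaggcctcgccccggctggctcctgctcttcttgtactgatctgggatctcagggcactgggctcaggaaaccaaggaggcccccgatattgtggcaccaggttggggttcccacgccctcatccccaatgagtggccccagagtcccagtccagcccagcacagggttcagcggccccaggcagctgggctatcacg
Ch25h: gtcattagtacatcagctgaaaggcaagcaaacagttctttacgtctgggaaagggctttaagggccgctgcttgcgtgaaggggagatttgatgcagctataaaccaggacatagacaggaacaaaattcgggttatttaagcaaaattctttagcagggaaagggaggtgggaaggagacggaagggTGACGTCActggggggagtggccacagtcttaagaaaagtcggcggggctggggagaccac

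Both strands were searched, and the LXR and PPAR elements share the repeat unit AGGTCA. Among 32851 start sites of the same table and length, 18.5% held an LXR match as loose as that of Abca1, 3.24% a PPAR match as loose as that of Plin2 and 1.55% an exact cAMP element. Each motif was found in 1 of the 8 members with an entry. The matches are a description of letters and were picked after the values were known.

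The efflux genes were lower in mean in transgenic lesions, by less than the spread between arrays allows to call. Abca1, the transporter that loads cholesterol and phospholipid onto lipid-poor apolipoproteins, stood at 7.62, 7.10 and 7.15 in transgenic replicates 1, 2 and 3, against 8.45, 7.60 and 7.44 in wild type replicates 1, 2 and 3. Both groups were highest on their replicate 1, and transgenic replicate 1 reached above the lower pair of wild type arrays. The means were 7.29 ± 0.29 in transgenic and 7.83 ± 0.54 in wild type lesions (SD, n = 3 each), a difference of -0.54 (SE 0.29, 95% interval -1.22 to 0.14), or 1.45-fold lower, at an adjusted p of 0.65 in limma. Without wild type replicate 1 the difference was -0.23.

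Abcg1, which passes cholesterol on to particles that already hold lipid, gave a smaller difference. It stood at 7.72, 7.67 and 7.51 in transgenic replicates 1, 2 and 3, against 8.00, 7.68 and 7.75 in wild type replicates 1, 2 and 3. The groups overlapped narrowly, since transgenic replicate 1 lay above wild type replicate 2, and wild type replicate 1 was the highest. The difference was -0.18 (SE 0.15, 95% interval -0.53 to 0.18) at an adjusted p of 0.78 in limma, and it was -0.083 without wild type replicate 1.

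Apoe, the main lipid-carrying apolipoprotein of the brain, had its highest value in a transgenic lesion. It stood at 7.33, 6.73 and 6.66 in transgenic replicates 1, 2 and 3, against 7.22, 7.18 and 6.96 in wild type replicates 1, 2 and 3. Transgenic replicates 2 and 3 lay below all wild type arrays, and transgenic replicate 1 above all of them. The difference was -0.21 (SE 0.21, 95% interval -0.70 to 0.28, adjusted p 0.81 in limma) with all arrays. It was -0.43 without transgenic replicate 1 (unadjusted p 0.026, adjusted p 0.38 in limma), -0.13 without transgenic replicate 2 and -0.093 without transgenic replicate 3.

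The lysosomal export genes included the member with the largest difference of the 9. Npc1, the membrane protein of late endosomes and lysosomes through which cholesterol leaves, stood at 6.86, 7.58 and 7.14 in transgenic replicates 1, 2 and 3, against 8.36, 7.68 and 7.85 in wild type replicates 1, 2 and 3. The highest transgenic array was below the lowest wild type array, though transgenic replicate 2 came within a small step of wild type replicate 2; 7.6% of all probe sets showed this separation. The means were 7.20 ± 0.36 in transgenic and 7.96 ± 0.35 in wild type lesions (SD, n = 3 each). The difference was -0.77 (SE 0.25, 95% interval -1.35 to -0.18), or 1.70-fold lower, with an unadjusted p of 0.0176 and an adjusted p of 0.49 in limma. The unadjusted p was 0.056 without transgenic replicate 1, 0.0501 without transgenic replicate 3 and 0.063 without wild type replicate 1, so the difference did not reach that level when any 1 of these 3 arrays was left out, nor without both arrays numbered 1 (unadjusted p 0.13).

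The value for Npc1 depends on its probe set. A second, dimmer probe set of Npc1 read 5.05, 5.46 and 5.24 in transgenic replicates 1, 2 and 3, against 5.12, 5.33 and 5.37 in wild type replicates 1, 2 and 3. There the groups overlapped and the difference was -0.023 (SE 0.16, adjusted p 0.98 in limma). With the mean of both probe sets the difference was -0.39 (unadjusted p 0.065 in limma). With sex as a term in the fit of the brighter one it was -0.38, which rests on transgenic replicate 2 alone against wild type. The dimmer one lay near or below the array medians of 5.34 to 5.59, and no detection calls were among the values used here.

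Npc2, the soluble lysosomal protein that hands cholesterol to NPC1, stood at 9.30, 9.02 and 8.77 in transgenic replicates 1, 2 and 3, against 9.84, 9.09 and 8.98 in wild type replicates 1, 2 and 3. The groups overlapped, with replicate 1 the highest in each. The difference was -0.27 (SE 0.26, 95% interval -0.89 to 0.34, adjusted p 0.81 in limma), and it was -0.0078 without wild type replicate 1. Npc1 and Npc2 thus differed in order: transgenic replicate 1 was the lowest transgenic array for Npc1 and the highest for Npc2.

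**Figure D2:**
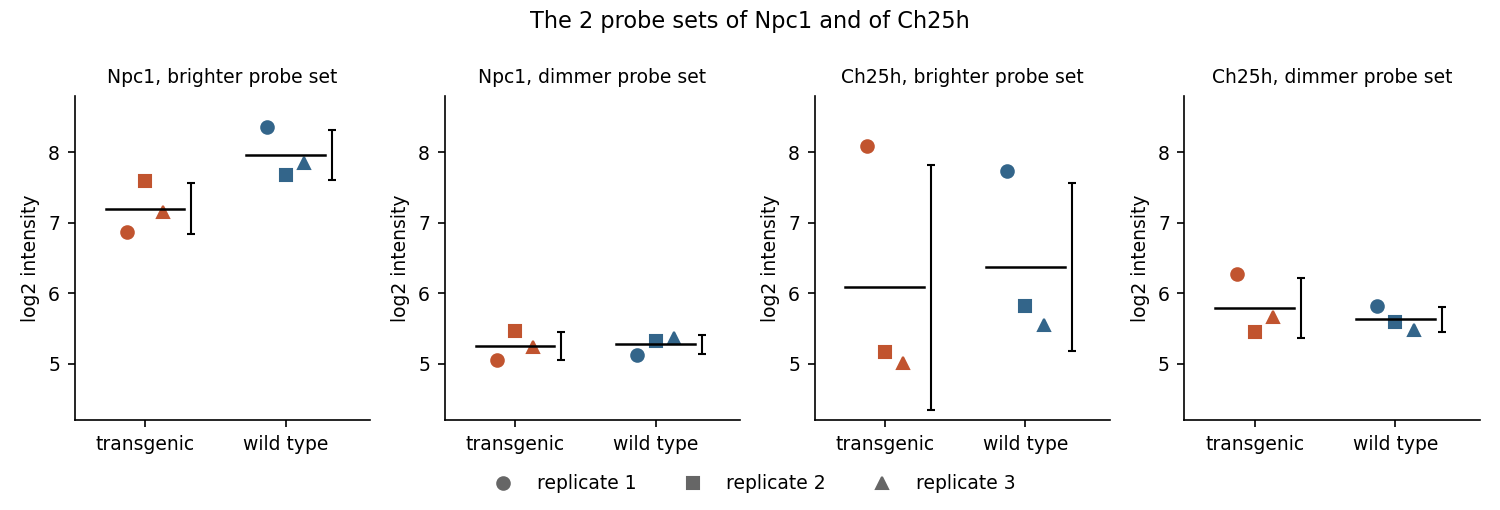
Log2 intensity (y axis) of both probe sets of Npc1 and of Ch25h in transgenic and wild type lesions, with 1 point per array, a line at the mean and a bar of 1 SD (n = 3). The separation of the groups in the brighter Npc1 probe set is not seen in the dimmer one, where the difference was -0.023, and the wide range of Ch25h is seen mainly in its brighter probe set.

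Plin2, the protein that coats stored lipid droplets, varied by more than 1 log2 unit within each group. It stood at 7.47, 6.12 and 6.54 in transgenic replicates 1, 2 and 3, against 7.36, 7.82 and 6.36 in wild type replicates 1, 2 and 3. The groups overlapped over most of their range, with 1 high array among the transgenic lesions and 1 low array among the wild type lesions. Its difference was -0.46 (SE 0.45), and the 95% interval ran from -1.53 to 0.60 (adjusted p 0.81 in limma). It was -0.14 without wild type replicate 2, -0.87 without wild type replicate 3, and -0.84 and -0.17 without transgenic replicate 1 or 2. With sex as a term it was -1.05, which rests on transgenic replicate 2 alone against wild type.

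Ch25h, the enzyme that turns cholesterol into 25-hydroxycholesterol and is induced in activated macrophages, had the widest range of the members. It stood at 8.09, 5.16 and 5.00 in transgenic replicates 1, 2 and 3, against 7.73, 5.82 and 5.55 in wild type replicates 1, 2 and 3. Replicate 1 of each group stood far above the other arrays, and among the remaining arrays both transgenic values lay below both wild type values. The means were 6.08 ± 1.74 in transgenic and 6.37 ± 1.19 in wild type lesions (SD, n = 3 each), and the difference of -0.28 had a 95% interval from -2.41 to 1.85 (adjusted p 0.95 in limma). The direction turned with the arrays used: it was 0.40 without wild type replicate 1, 0.18 without transgenic replicate 2, 0.26 without transgenic replicate 3 and -1.28 without transgenic replicate 1. In a dimmer second probe set of Ch25h the difference was 0.17 (SE 0.23), with transgenic replicate 1 again highest at 6.26.

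The sensor and its ubiquitin ligase target showed the smallest mean differences. Nr1h3, which encodes LXR alpha, stood at 5.54, 5.33 and 5.51 in transgenic replicates 1, 2 and 3, against 5.28, 5.58 and 5.31 in wild type replicates 1, 2 and 3. These values lay close to the array medians, the groups overlapped, and the difference was 0.070 (SE 0.15, 95% interval -0.29 to 0.43, adjusted p 0.93 in limma). Mylip, the ligase that marks lipoprotein receptors for degradation, stood at 6.67, 7.08 and 6.73 in transgenic replicates 1, 2 and 3, against 7.36, 6.64 and 6.59 in wild type replicates 1, 2 and 3. Wild type replicate 1 was the highest, followed by transgenic replicate 2, and the difference was -0.036 (SE 0.24, 95% interval -0.60 to 0.53, adjusted p 0.98 in limma). The direction of Mylip turned to 0.018 with each array centred on its median and to 0.21 without wild type replicate 1, and also without transgenic replicate 1 (0.042) or 3 (0.012) and with sex as a term (0.21), where Nr1h3 turned to -0.058.

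**Figure D3:**
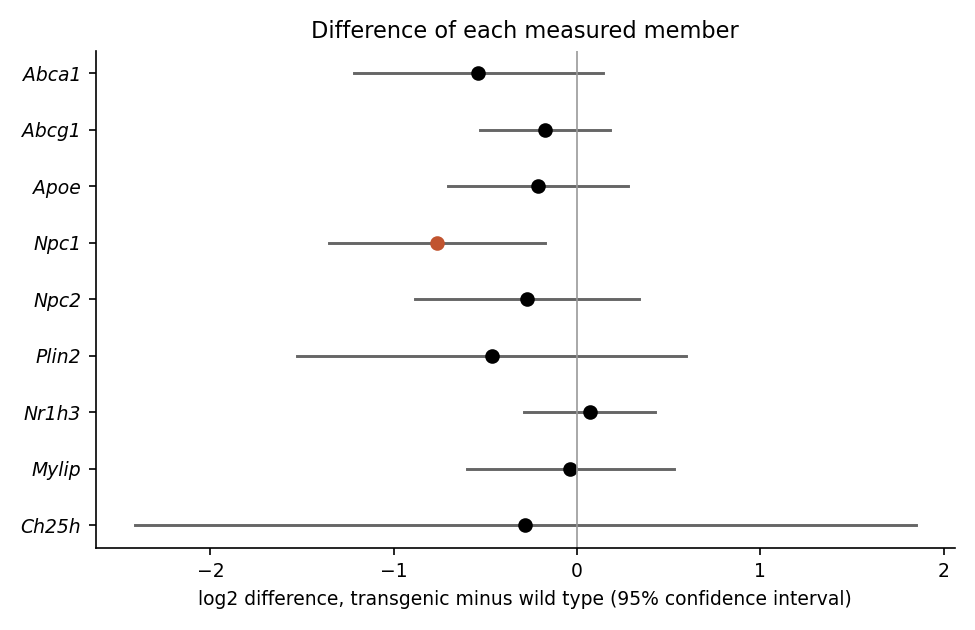
Log2 difference (x axis, transgenic minus wild type) of each measured member, with lines for the 95% confidence interval of the limma fit (n = 3 each). The interval of Npc1, drawn in colour, ends below 0 at -0.18, and the intervals of the other 8 genes include 0.

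Several members were high on the same arrays. Transgenic replicate 1 was the highest of the transgenic arrays in 7 of 9 members (39.7% of all probe sets), and wild type replicate 1 the highest of the wild type arrays in 7 of 9 (34%). Both held for 5 members: Abca1, Abcg1, Apoe, Npc2 and Ch25h, against 13.3% of all probe sets. The exceptions among transgenic arrays were Npc1 and Mylip, for which transgenic replicate 1 was the lowest.

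Markers of microglia and phagocytes had a similar order in their list means, though not gene by gene. The mean of 9 measured markers of microglia and macrophages was 8.76, 7.93 and 7.93 in transgenic replicates 1, 2 and 3, against 9.27, 8.15 and 7.91 in wild type replicates 1, 2 and 3. Single microglial genes were split on transgenic replicate 1. Tyrobp read 11.33 there, against 9.04 and 9.05 in transgenic replicates 2 and 3. Csf1r was lowest there, at 8.02 against 8.14 and 8.22 in transgenic replicates 2 and 3. P2ry12 was flat, at 8.22, 8.17 and 8.19 in transgenic replicates 1, 2 and 3. The mean of 9 markers of lipid-laden phagocytes was 8.97, 7.93 and 7.88 in transgenic replicates 1, 2 and 3, against 9.29, 9.04 and 8.23 in wild type replicates 1, 2 and 3. The second list was also high on wild type replicate 2, where Plin2 had its highest value. Their part in the members' values was not tested.

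Without both arrays numbered 1, an alternative chosen after the data were seen, 8 of 9 members were again lower in mean in transgenic lesions, with a median of -0.38, and none passed at an adjusted p of 0.05. In that comparison of 2 against 2 arrays the difference was -0.60 for Ch25h, -0.75 for Plin2, -0.40 for Abca1, -0.38 for Apoe and -0.40 for Npc1. The adjusted p of these 5 was 0.66 to 0.68 in limma, and of the 9 members Ch25h alone had an unadjusted p under 0.05 (0.024). The values of Ch25h on these arrays lay near or below the array medians of 5.34 to 5.59. They were 5.16 and 5.00 in transgenic replicates 2 and 3, against 5.82 and 5.55 in wild type replicates 2 and 3. In its dimmer probe set these arrays overlapped, at 5.45 and 5.66 in transgenic against 5.58 and 5.47 in wild type lesions. Mylip (0.29) and Nr1h3 (-0.027) had the opposite sign to that with all arrays.

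As a description over the 6 arrays, each member was set beside 115 genes of the other lists by Pearson correlation. The gene most alike was Cd9, a tetraspanin, for Abca1 (r 0.96) and Abcg1 (0.92), and Msr1, a scavenger receptor of macrophages, for Apoe (0.95) and Plin2 (0.96). It was Ctsd, a lysosomal protease, for Npc2 (0.95) and Tyrobp, a signalling adaptor of microglia, for Ch25h (0.96). Npc1 stood apart from these, with Ermn, a myelin gene, most alike (0.97). Mylip was most like the lipase gene Pnpla2 (0.86), and Nr1h3 most like Olr1 (0.75). Msr1, at means of 4.30 in transgenic and 4.63 in wild type lesions, and Olr1, at 4.36 in transgenic and 4.05 in wild type lesions, were dim, below the array medians of 5.34 to 5.59. With 6 arrays that share 2 groups, and the best of many genes chosen, these values carry no test.

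Among the members themselves, Abca1, Abcg1 and Npc2 were closest, with r of 0.91 to 0.95 between each pair, and Apoe and Ch25h followed at 0.87. Npc1 had an r of 0.56 with Npc2 and of 0.043 with Ch25h. Nr1h3 had an r of -0.29 with Abca1 and -0.59 with Abcg1, both of which its product regulates.

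**Figure D4:**
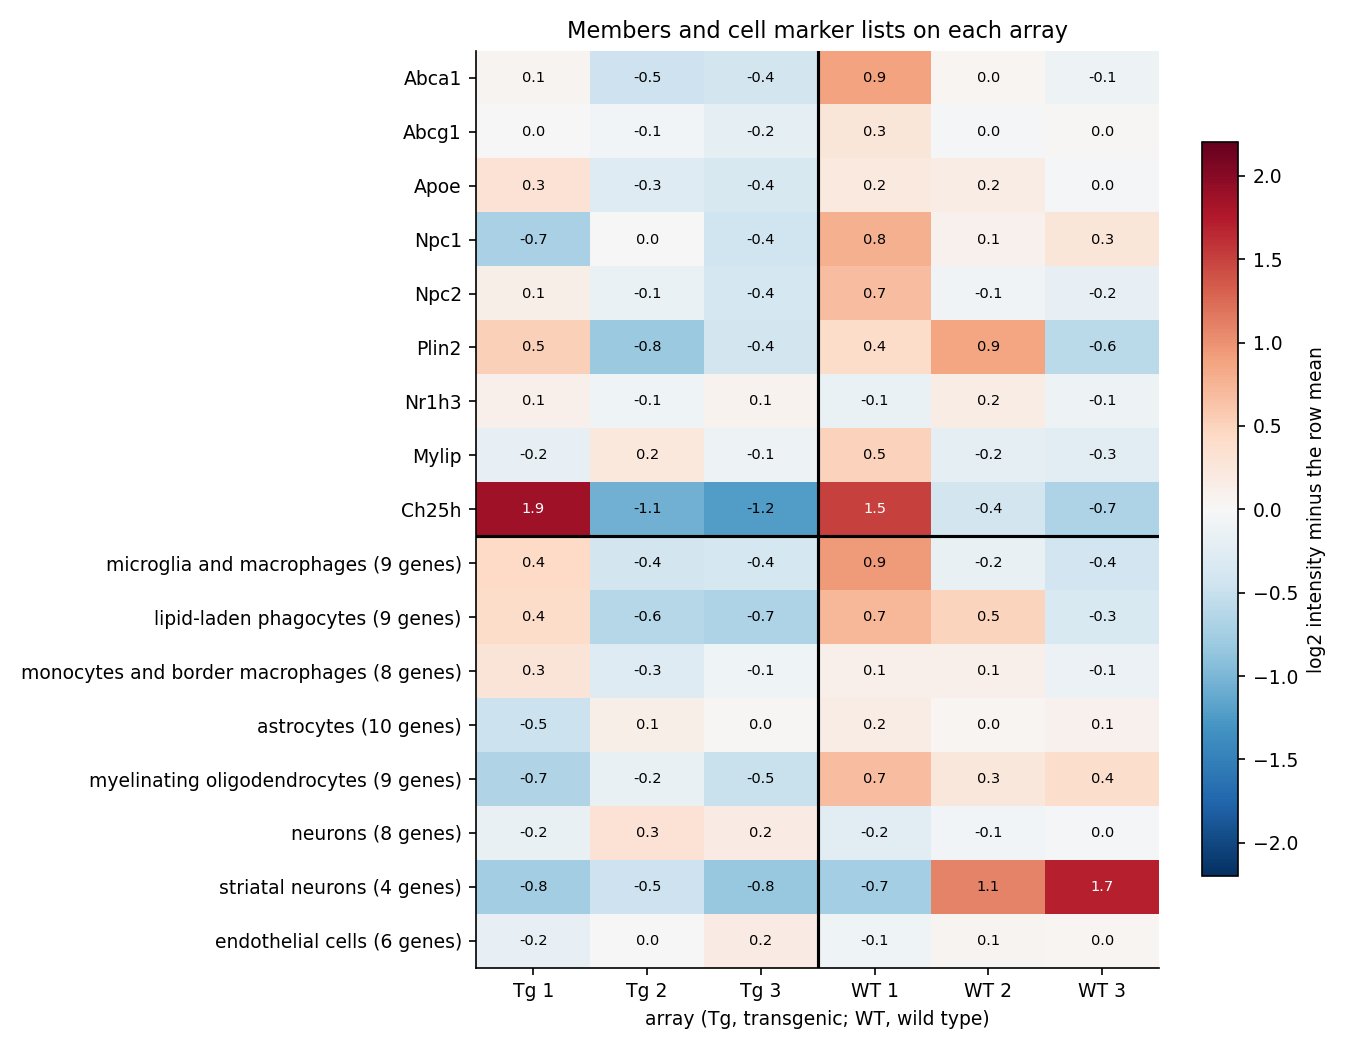
Log2 intensity minus the row's mean over the 6 arrays (colour and printed values) for each member and for the mean of each cell marker list, with transgenic arrays (Tg) on the left and wild type arrays (WT) on the right. Ch25h and the microglial list are high on replicate 1 of both groups, and Npc1 and the myelin list are lower on all transgenic than on all wild type arrays.

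The other cell marker lists were read in the same way. Markers of myelinating oligodendrocytes had a mean of 8.43, 8.93 and 8.61 in transgenic replicates 1, 2 and 3, against 9.78, 9.35 and 9.49 in wild type replicates 1, 2 and 3. All 9 measured were lower in mean. Of them 8, like the brighter probe set of Npc1, had every transgenic array below every wild type array, against 7.6% of all probe sets. Among the brightest were Mobp (-0.91), Ermn (-1.18) and Mbp (-0.80), structural genes of myelin. The part of myelin-forming cells in the value of Npc1 was not tested. Of 10 astrocyte markers, 7 were lower in mean, and 3 had every transgenic array below every wild type array. The list mean was 8.30 in transgenic replicate 1 and 8.90 in transgenic replicate 2, against 8.81 to 8.94 in wild type lesions. Transgenic replicate 3 lay just below the lowest wild type array. The lower list mean of the transgenic lesions thus rested mainly on transgenic replicate 1. Among the brightest, Aldoc differed by 0.0017, Mlc1 by -0.30 and Slc1a3 by -0.48. Sox9, named after its value was seen, was the astrocyte marker with an unadjusted p under 0.05, at -0.53 (adjusted p 0.52 in limma).

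The 9 microglial and macrophage markers held 6 lower in mean, with Tyrobp at 0.19, Cd68 at -0.67 and Cx3cr1 at -0.54, and the phagocyte list held 8 lower of 9, with Ctsd at -0.48, Ctsb at -0.35 and Fabp5 at 0.035. Of the 4 probe sets of Fabp5, 2 were lower and 2 higher. Markers of monocytes and border macrophages were lower in 5 of 8, with list means of 5.32 to 5.88 in transgenic and 5.47 to 5.71 in wild type lesions, and Lyz2 at -0.66, Plac8 at 0.12 and Ly6c2 at -0.20. Pf4, a platelet factor also made by border macrophages and likewise named after its value was seen, was the gene of that list with an unadjusted p under 0.05. It differed by 0.52 (unadjusted p 0.0070, adjusted p 0.43 in limma), with all transgenic arrays above all wild type arrays, as for 8.54% of probe sets. Pf4 was dim, at means of 5.45 in transgenic and 4.93 in wild type lesions, near or below the array medians of 5.34 to 5.59. All 8 neuronal markers were higher in mean, with Snap25 at 0.16, Syt1 at 0.22 and Stmn2 at 0.36. None of the 8 had an unadjusted p under 0.05 in limma, and the groups overlapped in each. The neuronal list mean was 9.68, 10.16 and 10.01 in transgenic replicates 1, 2 and 3, against 9.59, 9.78 and 9.79 in wild type replicates 1, 2 and 3. Of the 4 striatal markers measured, all were lower in mean, with Rgs9 at -1.48, Drd2 at -1.49 and Drd1 at -1.09, and of 6 endothelial markers 3 were lower, with Cdh5 at 0.093, Flt1 at -0.051 and Cldn5 at 0.073.

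Further genes of sterol and lipid handling, in 7 lists of 56 genes, gave 52 measured genes. Of these 36 were lower and 16 higher in mean in transgenic lesions, and the median over all 52 was -0.13. No gene passed at an adjusted p of 0.05 in limma. At an unadjusted p under 0.05, 2 of 52 were lower (4.05% of all probe sets) and 2 higher (4.82%).

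Among 8 LXR partners and further LXR targets, 7 were lower in mean, with a median difference of -0.22. Srebf1, the lipogenic transcription factor that LXR induces, stood at 6.32, 6.39 and 6.35 in transgenic replicates 1, 2 and 3, against 6.89, 6.47 and 6.70 in wild type replicates 1, 2 and 3. Every transgenic array was below every wild type array, at a difference of -0.33 (SE 0.16, adjusted p 0.60 in limma). The desaturase gene Scd1 differed by -0.65 (SE 0.37), with the groups overlapping.

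The 8 further lipid transporters and apolipoproteins held 5 lower and 3 higher. Abca2, a lipid transporter abundant in oligodendrocytes, stood at 7.60, 8.27 and 7.97 in transgenic replicates 1, 2 and 3, against 8.64, 8.40 and 8.59 in wild type replicates 1, 2 and 3, a difference of -0.59 (SE 0.20). Abca7, a phospholipid transporter related to Abca1, stood at 5.51, 5.82 and 5.53 in transgenic replicates 1, 2 and 3, against 5.15, 5.24 and 5.21 in wild type replicates 1, 2 and 3, a difference of 0.42 (SE 0.15). The groups did not overlap for either gene, and they lay in opposite directions, with adjusted p-values of 0.49 for Abca2 and 0.51 for Abca7 in limma. Of all probe sets, 7.6% were separate in the direction of Abca2 and 8.54% in that of Abca7. The wild type values of Abca7 were dim, below the array medians of 5.34 to 5.59.

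Of 9 genes of lysosomal lipid handling, 7 were lower in mean, with a median of -0.24. Stard3, a sterol transfer protein of late endosomes, stood at 5.95, 6.08 and 6.05 in transgenic replicates 1, 2 and 3, against 6.27, 6.30 and 6.47 in wild type replicates 1, 2 and 3, and the groups did not overlap. Its difference was -0.32 (SE 0.14, adjusted p 0.56 in limma). Of the 9 genes, 2 had all transgenic arrays below all wild type arrays, against 7.6% of all probe sets, and in the others the groups overlapped.

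The 15 measured genes of lipid droplets, esterification and lipolysis went both ways, 9 lower and 6 higher, with a median of -0.025. Nceh1, a hydrolase of stored cholesterol ester and so the counterpart of Soat1, stood at 9.30, 9.07 and 9.15 in transgenic replicates 1, 2 and 3, against 8.33, 8.83 and 8.76 in wild type replicates 1, 2 and 3. All transgenic arrays lay above all wild type arrays, as for 8.54% of probe sets, at a difference of 0.54 (SE 0.18, adjusted p 0.49 in limma). A second probe set of Nceh1 differed by 0.14 (SE 0.19), with overlapping groups.

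The remaining lists were smaller. Oxysterol and sterol-turnover enzymes were lower in 3 of 6, with Sult2b1 at 0.29 (SE 0.21) and Cyp7b1 at 0.13 (SE 0.13). Of the receptors that Mylip targets, Vldlr differed by -0.11 (SE 0.16) and Lrp8 by -0.085 (SE 0.17). Of 4 scavenger receptors 3 were lower, with Lrp1 at -0.34 (SE 0.19) and Olr1 at 0.31 (SE 0.21). None of these genes reached an unadjusted p of 0.05.

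**Figure D5:**
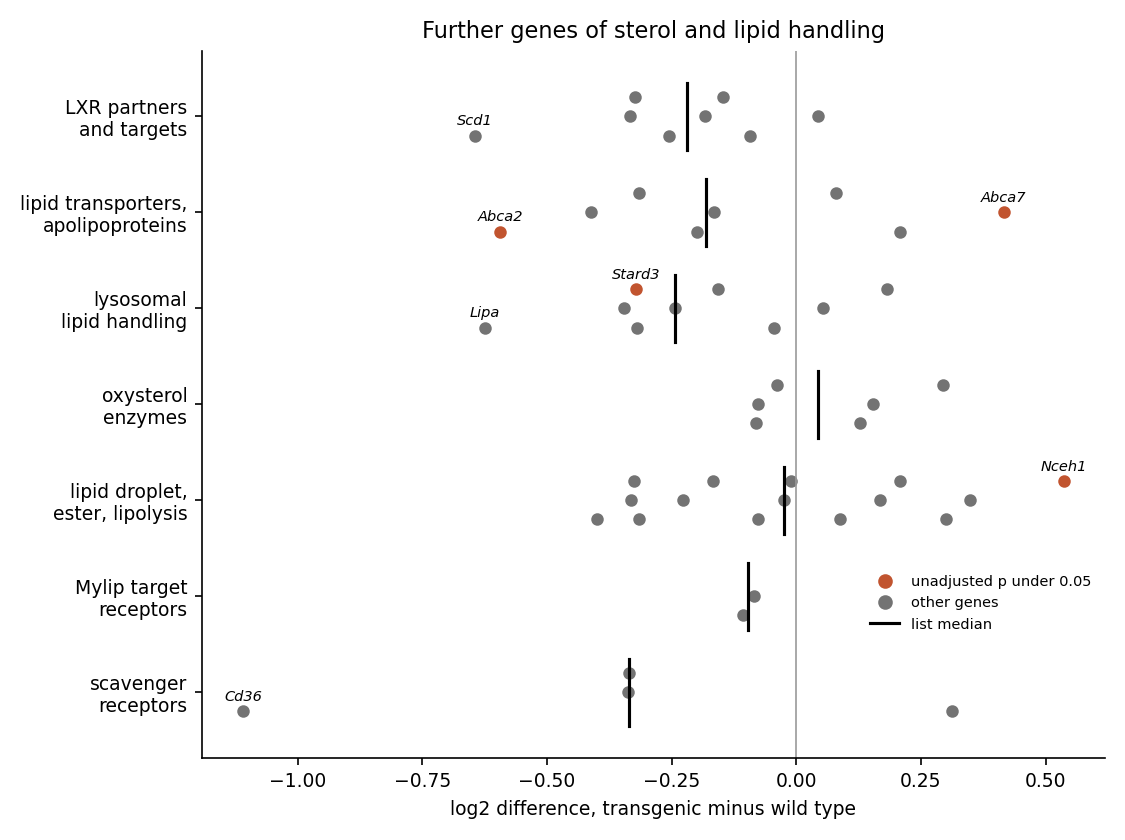
Log2 difference (x axis, transgenic minus wild type) of 52 further genes of sterol and lipid handling, in rows by list, with 1 point per gene and a bar at the list median. The 4 coloured genes had an unadjusted p under 0.05, with Abca2 and Stard3 lower and Abca7 and Nceh1 higher, and labels also mark genes that differed by more than 0.6.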

How the data were processed

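Gene expression was measured on 6 Affymetrix arrays, 3 of transgenic and 3 of wild type lesions, grouped by the sample titles. Per the submitters' processing notes, the authors made the deposited intensities with RMA and Affymetrix Expression Console; RMA usually gives log2 values, but the deposited intensities were linear, with array medians of 40.4 to 48.3, and were turned to log2 here. The sources used here give no versions, no build, no detection calls and no scan dates. RMA brings the arrays closer to each other, so a shift shared by most genes could go unseen. The deposited arrays still differed in log2 median, from 5.34 in transgenic replicate 2 to 5.59 in transgenic replicate 1. Centring each array on its median moved the median difference of all probe sets from -0.0066 to 0.047.

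All 41345 probe sets were compared with limma 3.58.1 in R 4.3.3 (lmFit, eBayes, two-sided, Benjamini-Hochberg over all probe sets, threshold 0.05), with no covariate; 23521 had 1 gene symbol, 1814 several and 16010 none. Precision is limited by the number of arrays, with a median standard error of 0.19 on the log2 scale. The fit was first tested on simulated data with independent noise of the same SD in both groups. That test therefore does not cover the unequal spread of these arrays or the overlap of sex and genotype.

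The members, lists and tests were chosen with earlier results of these data known. Named were all members, in each pathway list the genes with an unadjusted p under 0.05 or else the 2 with the smallest p, in each cell list the 3 brightest, and for each member the most correlated gene. Some genes of the lists are not reported here. Lists were described by counts and medians, without set tests. Deviations of same-numbered arrays from their group means correlated at 0.012, -0.098 and -0.068, so the replicate numbers were not taken to pair arrays. Alternatives changed the normalization, dim-probe filter, probe set, array weights, moderation, covariate, block, scale and arrays.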

Additional observations from a re-analysis of the deposited data

How the results depend on the processing

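Over 17 alternatives, 112 differences of single members took another value, and 100 of these kept their direction; 40 more could not move under their alternative. Abca1, Abcg1, Apoe, Plin2, Npc1 and Npc2 did not change direction. Npc1 had an unadjusted p under 0.05 in 10 of its 17 alternatives and not in the other 7. No member passed at an adjusted p of 0.05 except Npc1 with array weights (difference -0.78, adjusted p 0.0346, against 0.0346 to 0.986 over its alternatives), a fit in which transgenic replicate 3 had a weight of 7.67 and transgenic replicates 1 and 2 had 0.28 and 0.26. Mylip turned to 0.018 with median centring, 0.21 with sex as a term, 0.042 and 0.012 without transgenic replicate 1 or 3, 0.21 without wild type replicate 1 and 0.29 without both arrays numbered 1, and ranged from -0.17 to 0.21 when single arrays were left out. Nr1h3 turned to -0.058 with sex as a term and -0.027 without both arrays numbered 1. Ch25h turned to 0.17 with its dimmer probe set, 0.18 and 0.26 without transgenic replicate 2 or 3, and 0.40 without wild type replicate 1, and ranged from -1.28 to 0.40 when single arrays were left out. The cause was not tested.

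The count of probe sets at an adjusted p under 0.05 in limma was 0 with all arrays (3668 at an unadjusted p under 0.05), 2611 with array weights, 1481 with sex as a term, a fit that rests on transgenic replicate 2, and 0 to 335 when single arrays were left out, with 335 without transgenic replicate 2. The unadjusted count was 10793 with array weights, 8604 with sex as a term, 2244 of 20673 without dim probe sets, where fewer were tested, and 2031 to 5168 without single arrays, lowest without wild type replicate 1 and highest without transgenic replicate 1. The count of lower members ranged from 6 to 8 and their median difference from -0.43 to -0.083 when single arrays were left out. With the replicate number as a block, 0 probe sets passed and 2999 had an unadjusted p under 0.05, the median difference of the members was -0.27 as without it, since the block leaves differences as they are, and members with an unadjusted p under 0.05 were Npc1 (0.041) and Abca1 (0.029, against 0.10 without the block). No adjusted call changed. Without detection calls, differences of dim probe sets such as Nr1h3 are bounded only by their intervals.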
